A study of Homo sapiens with 18 samples.

Results

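HSPH1, HSPA4 and HSPA4L are the genes of the cytosolic HSP110 family. They were taken by symbol, as 3 of the 26485 genes of the count table, and all 3 passed the filter on low counts that left 12832 genes. SW620 cells, an established human colon cancer line, had been transfected with a scramble siRNA or with siRNA against Lonp1 (siLonp1), the mitochondrial protease. In each siRNA arm, cells stayed at 37 °C (Ctrl), were heated to 42 °C during 1 h (HS), or had this heat shock followed by recovery at 37 °C during 1 h (HS+REC). RNAseq gave 3 libraries in each of the 6 groups. All groups were of this 1 line and all had been transfected, and the sources used here do not name which siRNA sequence against Lonp1 was used for RNAseq.

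HSP110 proteins are large relatives of HSP70 that act mainly as its nucleotide exchange factors. HSP70 binds an unfolded protein tightly once J-domain proteins have made it hydrolyse ATP, and an exchange factor removes the ADP so that fresh ATP can bind and the client is let go. HSPH1 (HSP105) is known as heat inducible, HSPA4 (Apg-2) as widely and constitutively expressed, and HSPA4L (Apg-1) as abundant in testis. Heat shock factor HSF1 drives heat-inducible genes through heat shock elements, which are inverted repeats of the unit GAA.

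The 3 genes lie at hg38 chr13:31134973-31162388 on the minus strand (HSPH1), chr5:133052013-133106449 on the plus strand (HSPA4) and chr4:127781821-127840733 on the plus strand (HSPA4L), in GENCODE 44. Because the results concern heat, the stretches within 1000 bases of the start of each canonical transcript were searched on both strands for neighbouring GAA units, that is GAANNTTC or TTCNNGAA (2 units) and GAANNTTCNNGAA or TTCNNGAANNTTC (3 units, each of which contains a pair of overlapping matches of the shorter kind). The window and the start used were chosen after matches had been seen. The sequences below are shown because HSPH1 holds a 3-unit match and the other members only 2-unit ones. They are reference sequence read 5′ to 3′ on the strand of the gene, 30 bases each, with the match in capitals.
HSPH1, 3 units, 59 bases before the start, chr13:31161942-31161971: gccgcagaTTCTGGAAAGTTCtgatcagtg
HSPH1, 2 units, 139 bases before the start, chr13:31162025-31162054: gggtagaatctTTCCAGAAggctcgagaag
HSPA4, 2 units, 353 bases before the start, chr5:133051649-133051678: ccccactaccgGAAGTTTCtttgatgttaa
HSPA4L, 2 units, 170 bases before the start, chr4:127782141-127782170: tttccagatctTTCTCGAAcccgcagcttc
HSPH1 had 4 of the shorter matches in the window, the overlapping pair inside its 3-unit match among them, and another was in an intron, 942 bases after the start. HSPA4 and HSPA4L had 1 short match each and no 3-unit match. Of 20020 protein-coding genes, 59.1% held a short match in a window of that length and 2.64% held a 3-unit match. A short match is therefore common, and the 3-unit match of HSPH1 is less so. Among other genes of the HSP70 cycle, 2 of 7 cytosolic HSP70 genes, 3 of 8 J-domain genes and 2 of 6 other cytosolic exchange factors also held a 3-unit match. Of 4 organelle exchange factors 0 did. HSPA6, HSPA8, DNAJA1, DNAJB6 and BAG3 held one and rose in HS scramble, while BAG2 held one and fell, and DNAJB5 held one and was not called. HSPA1A, HSPA1B, HSPA1L, DNAJA4, DNAJB1 and DNAJB4 held none, and each rose there by more than HSPH1. The matches are descriptions of the letters and not binding sites. The HSPH1 and HSPA4L matches before the start lie inside the annotated gene, since other transcripts of these genes start further upstream, whereas that of HSPA4 lies upstream of the gene.

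Library totals were 30815860 to 47279297 counts, with a median of 40847024. The targeted gene was low in each library labelled siLonp1. LONP1 was at 221 ± 5.56 counts per 1000000 counts (CPM; mean ± SD, n = 3) in Ctrl scramble and 20.4 ± 1.75 in Ctrl siLonp1, at 214 ± 15.7 and 11.7 ± 0.154 in HS, and at 218 ± 18.7 and 27.2 ± 1.64 in HS+REC, so the residual level in siLonp1 cells differed between conditions. Of 9 colon epithelial markers 7 were above 1 CPM on average, among them EPCAM, KRT8 and CDX2, while CDX1 was at 0 and LGALS4 never passed 1 CPM. Their summed level, mostly keratins, was higher with silencing in Ctrl (9260 to 9677 CPM in scramble and 10315 to 11009 in siLonp1) and in HS (9840 to 10250 and 11566 to 12133), and overlapped in HS+REC (8758 to 10154 and 8759 to 10865). Single markers also moved with silencing. CDX2 was lower in siLonp1 than in scramble cells, by log2 differences of -0.90 (Ctrl), -1.38 (HS) and -1.07 (HS+REC), and CDH1 was higher, by 0.62, 0.62 and 0.49, differences as large as or larger than most siLonp1 differences of the HSP110 genes. Of the other markers PDGFRB, a fibroblast marker, was higher in siLonp1 cells by 1.17, 1.03 and 1.12, and CD68, a leukocyte marker, by 0.35, 0.53 and 0.44. The part of these shifts in the siLonp1 differences of the HSP110 genes was not tested. Of the leukocyte markers PTPRC and CD3E were near 0, and the sum of 3 was 10.7 to 18.1 CPM, mostly CD68. The sum of 3 endothelial markers was 0.631 to 1.53 CPM. The sum of 3 fibroblast markers, mostly COL1A1 with COL3A1 at 0, moved with heat, from 8.98 to 11.2 CPM in Ctrl scramble through 16.03 to 20.04 in HS scramble to 30.6 to 31.8 in HS+REC scramble, and its part in the results below was not tested. All groups were of 1 established line, so the cell type a marker is named for is not thereby shown to be present. In bulk RNA, fewer cells of a type and less RNA per cell cannot be told apart.

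The first question is how the HSP110 genes stood in cells that had seen no heat. In Ctrl scramble, HSPH1 was at 283, 266 and 285 CPM in replicates 1 to 3. HSPA4 was at 285, 270 and 283 CPM in the same libraries. HSPA4L was at 23.1, 21.99 and 23.7 CPM. HSPH1 and HSPA4 thus drew nearly equal numbers of reads and HSPA4L fewer than either in each library. Levels of different genes are comparable only per length, and on the scale of CPM per kb of the union of annotated exons Ctrl scramble had 33.1 ± 1.26 for HSPH1, 55.1 ± 1.55 for HSPA4 and 2.003 ± 0.0744 for HSPA4L (SD, n = 3). With the length of the canonical transcript instead, the levels were 53.0, 58.5 and 2.16 CPM per kb, so the order held and the distance between HSPH1 and HSPA4 depended on the gene model. By CPM per kb of exon union, HSPA4 stood at rank 649 of 11902 genes in Ctrl scramble, HSPH1 at rank 1223 and HSPA4L at rank 8559.

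Heat shock for 1 h raised the 3 genes in both siRNA arms, HSPH1 by far more than the other members. HSPH1 was at 1897, 1913 and 1837 CPM in HS scramble, and at 2918, 2844 and 2945 CPM in HS siLonp1. HSPA4 was at 502, 462 and 480 CPM in HS scramble and at 589, 554 and 599 CPM in HS siLonp1. HSPA4L was at 53.5, 53.5 and 48.4 CPM in HS scramble and at 66.5, 65.9 and 71.8 CPM in HS siLonp1. Each HS library lay above each Ctrl library for each gene, and the HS siLonp1 libraries lay above the HS scramble libraries. In the scramble arm HSPH1 rose 6.77-fold (log2 fold change 2.76, SE 0.08, adjusted p = 1.05e-17, edgeR quasi-likelihood test, Benjamini-Hochberg over all tested genes, which holds for each adjusted p of a single gene below). HSPA4L rose 2.26-fold (1.18, SE 0.09, adjusted p = 6.39e-10) and HSPA4 1.72-fold (0.78, SE 0.06, adjusted p = 1.55e-10). Of all genes tested in this comparison 18.6% were called higher at any fold and 2.94% higher by more than 2-fold. All 3 members were in the first class, and HSPH1 and HSPA4L in the second.

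In siLonp1 cells the log2 fold changes from Ctrl to HS were 3.51 for HSPH1 (SE 0.09, adjusted p = 1.63e-19), 1.83 for HSPA4L (SE 0.10, adjusted p = 2.85e-13) and 1.09 for HSPA4 (SE 0.06, adjusted p = 3.68e-13). These are 11.4-fold, 3.56-fold and 2.13-fold, so that here each member rose by more than 2-fold. The background was 20.2% of genes called higher at any fold and 3.42% above 2-fold. The 12832 genes tested were ranked from the largest rise down to the largest fall. The HS change of HSPH1 stood at rank 54 in scramble and 45 in siLonp1. That of HSPA4L stood at 282 and 142, and that of HSPA4 at 586 and 369.

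**Figure D1:**
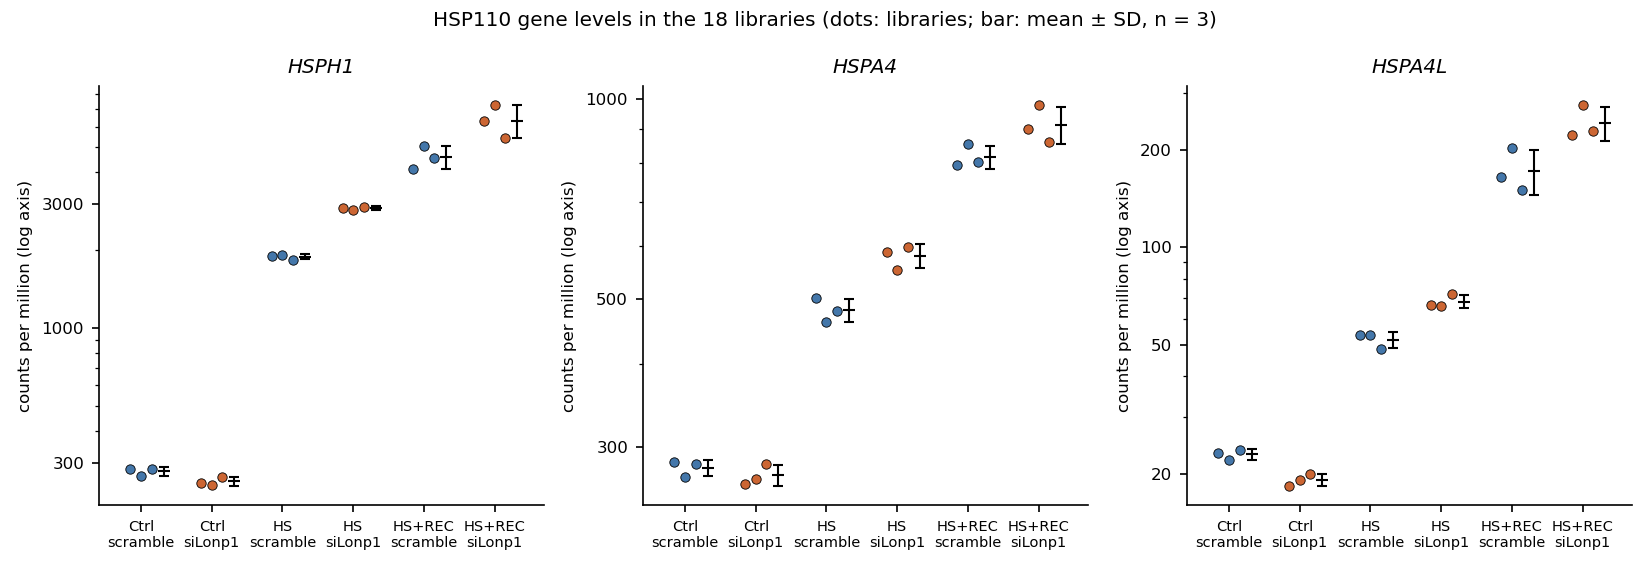
CPM of HSPH1, HSPA4 and HSPA4L on log axes in the 6 groups. Dots are the 3 libraries of a group (blue scramble, orange siLonp1) and the bar beside them is the mean ± SD. For each gene, every HS library lies above every Ctrl library and every HS+REC library above every HS library, and the siLonp1 libraries lie above the scramble libraries in HS and in HS+REC.

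The second question is whether the levels fell back once the cells were returned to 37 °C. They did not, and each of the 3 genes stood higher after 1 h of recovery than at the end of the heat shock. HSPH1 was at 4128, 5067 and 4554 CPM in HS+REC scramble and at 6311, 7273 and 5423 CPM in HS+REC siLonp1. HSPA4 was at 794, 854 and 803 CPM in the scramble arm and at 902, 978 and 862 CPM in the siLonp1 arm. HSPA4L was at 165, 203 and 150 CPM in the scramble arm and at 223, 276 and 229 CPM in the siLonp1 arm. No HS+REC library overlapped an HS library of the same arm, although replicates spread more widely in HS+REC, where the coefficient of variation for HSPH1 was 10.3% in scramble and 14.6% in siLonp1, against 2.13% and 1.80% in HS.

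Between HS and HS+REC the largest step among the members was that of HSPA4L. In the scramble arm its log2 change was 1.74 (SE 0.09, adjusted p = 1.25e-12), that of HSPH1 1.28 (SE 0.08, adjusted p = 2.62e-11) and that of HSPA4 0.76 (SE 0.06, adjusted p = 5.26e-10). In the siLonp1 arm the same changes were 1.83 (SE 0.09, adjusted p = 3.03e-13), 1.13 (SE 0.08, adjusted p = 1.23e-10) and 0.65 (SE 0.06, adjusted p = 4.20e-09). HSPH1 and HSPA4L thus passed 2-fold in both arms and HSPA4 in neither. In this comparison 14.2% of all genes in scramble and 16.3% in siLonp1 were called higher at any fold, and 1.06% and 1.83% by more than 2-fold. Ranked from the largest rise down to the largest fall, HSPA4L was at 33 of 12832 in scramble and 39 in siLonp1.

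Over the whole course, from Ctrl to HS+REC, HSPH1 rose 16.5-fold in scramble (log2 fold change 4.04, SE 0.09, adjusted p = 1.36e-20) and 24.9-fold in siLonp1 (4.64, SE 0.09, adjusted p = 1.69e-21). HSPA4L rose 7.54-fold (2.91, SE 0.10) and 12.7-fold (3.66, SE 0.10), and HSPA4 2.92-fold (1.55, SE 0.06) and 3.36-fold (1.75, SE 0.06). All 3 members were called and passed 2-fold in both arms, where 21.8% of all genes in scramble and 24.6% in siLonp1 were called higher at any fold and 3.78% and 4.51% above 2-fold. These comparisons share the Ctrl libraries with those of HS. HSPH1 took 0.0293% of all counts in Ctrl scramble, 0.195% in HS scramble and 0.456% in HS+REC scramble, and 0.600% in HS+REC siLonp1. By CPM per kb its rank moved from 1223 to 115 and 41 in scramble and from 1444 to 81 and 31 in siLonp1. HSPA4 moved from rank 649 to 335 and 194 in scramble, and HSPA4L from 8559 to 6565 and 2816.

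The third question concerns Lonp1 silencing itself. At 37 °C 1 of the 3 genes, HSPA4L, was called, as lower in siLonp1 cells. HSPH1 was at 251, 246 and 265 CPM in Ctrl siLonp1, each below each Ctrl scramble library, but the log2 difference of -0.13 (95% confidence interval -0.29 to 0.04) did not pass the test (adjusted p = 0.187). It was called lower with library size only (-0.20) and with a fit of only the groups compared (-0.14). HSPA4, at 264, 269 and 283 CPM, overlapped Ctrl scramble, with a difference of -0.04 (interval -0.16 to 0.08, adjusted p = 0.618). HSPA4L, at 18.3, 19.1 and 19.97 CPM, fell by 0.26 on the log2 scale (SE 0.10, adjusted p = 0.0309), where 22.9% of all genes were called lower. That call was lost when Ctrl scramble replicate 1 or 3 or Ctrl siLonp1 replicate 1 or 2 was left out, with log2 differences of -0.25, -0.24, -0.23 and -0.26.

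Under heat, each member was higher in siLonp1 cells than in scramble cells. In HS the log2 difference was 0.63 for HSPH1 (SE 0.08, adjusted p = 7.02e-07), 0.39 for HSPA4L (SE 0.09, adjusted p = 8.27e-04) and 0.27 for HSPA4 (SE 0.06, adjusted p = 3.68e-04), that is 54.2%, 31.3% and 20.7% more. In HS+REC it was 0.47 for HSPH1 (SE 0.08, adjusted p = 2.98e-05), 0.49 for HSPA4L (SE 0.09, adjusted p = 5.48e-05) and 0.16 for HSPA4 (SE 0.06, adjusted p = 0.0201). The siLonp1 libraries lay above the scramble libraries in each of these 6 comparisons. No member passed 2-fold, and many genes were called at this size, with 28.1% of all genes higher in HS and 26.8% in HS+REC, so the number of members called is read against a large background. The HSPA4 call in HS+REC was lost without HS+REC scramble replicate 1 (log2 difference 0.14) or 3 (0.15) or HS+REC siLonp1 replicate 2 (0.11), with library size only (0.091) and with a fit of only the groups compared (0.16).

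Whether the response to heat itself differed between the arms was tested as the interaction of siLonp1 and HS, the log2 change from Ctrl to HS in siLonp1 minus that in scramble. It was 0.75 for HSPH1 (SE 0.11, adjusted p = 5.85e-04), 0.65 for HSPA4L (SE 0.13, adjusted p = 0.00953) and 0.31 for HSPA4 (SE 0.08, adjusted p = 0.0494). Here few genes were called, 0.475% of those tested in the higher direction and 1.39% in the lower. The HSPA4 value lay at the threshold and was lost in 9 of the 18 fits that left out a library, among which its values ran from 0.28 to 0.34. For HSPH1 and HSPA4L the call stood in each of those fits. For HS+REC the interaction was 0.60 for HSPH1 (SE 0.11, adjusted p = 0.00626) and 0.75 for HSPA4L (SE 0.13, adjusted p = 0.00374), where 0.686% of all genes were called higher. For HSPA4 it was 0.20 (95% confidence interval 0.03 to 0.37, adjusted p = 0.256) and was not called. The Ctrl libraries enter both interactions, and the lower Ctrl siLonp1 levels are part of both.

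**Figure D2:**
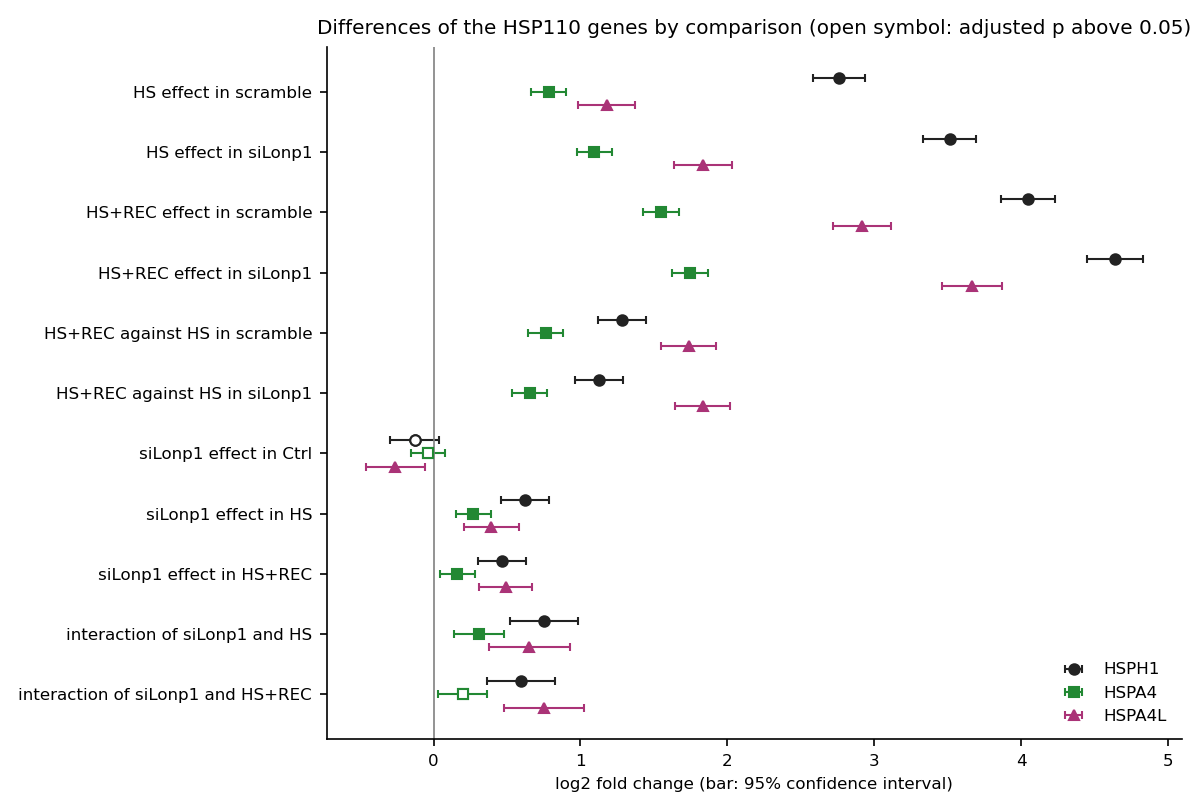
Log2 fold change with its 95% confidence interval for HSPH1 (circles), HSPA4 (squares) and HSPA4L (triangles) in the 11 comparisons. Open symbols did not pass an adjusted p of 0.05. HSPH1 leads the changes against Ctrl and HSPA4L those from HS to HS+REC, while the siLonp1 differences are small beside the heat differences and lie below 0 in Ctrl (HSPA4L alone passing the test) and above 0 under heat.

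Because the members moved by different amounts, their ratios within each library were compared, which do not depend on how libraries are scaled. There were 16 such tests (4 ratios in 4 comparisons), each a two-sided exact permutation test with labels exchanged only within an siRNA arm, or within a condition for the siRNA comparison, and p-values were adjusted over the 16. The smallest p that the design allows is 0.005 for the comparisons of conditions. The count ratio of HSPH1 to HSPA4 was 0.995 in Ctrl scramble, 3.91 in HS scramble and 5.59 in HS+REC scramble, and 0.934, 5.00 and 6.89 in the siLonp1 arm (geometric means, n = 3). Averaged over arms it rose by 2.20 on the log2 scale from Ctrl to HS and by a further 0.49 from HS to HS+REC (both adjusted p = 0.00727, exact permutation test, no overlap between groups in either arm).

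The ratio of HSPH1 to HSPA4L moved 1 way and then back. It was 12.1 in Ctrl scramble, 36.4 in HS scramble and 26.7 in HS+REC scramble, and 13.3, 42.7 and 26.1 in the siLonp1 arm. From Ctrl to HS it rose by 1.63 on the log2 scale, and from HS to HS+REC it fell by 0.58 (both adjusted p = 0.00727, exact permutation test, no overlap in either arm). HSPH1 therefore led in the first hour, and HSPA4L gained on it in the second. HSPA4L also gained on HSPA4 at both steps. The HSPA4 to HSPA4L ratio was 12.2, 9.29 and 4.77 in Ctrl, HS and HS+REC of the scramble arm and 14.2, 8.53 and 3.78 in the siLonp1 arm, and it fell by 0.57 and then by 1.07 on the log2 scale (both adjusted p = 0.00727, exact permutation test).

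Silencing shifted these ratios less than heat did. Over the 3 conditions the HSPH1 to HSPA4 log2 ratio was 0.19 higher in siLonp1 cells (adjusted p = 0.0157, exact permutation test), but within conditions the difference was -0.09 (Ctrl), 0.35 (HS) and 0.30 (HS+REC). The average therefore joins opposite directions, and whether the conditions differed was not tested for the ratio. The call on this average was lost with the replicate number as a block. The HSPH1 to HSPA4L log2 ratio was 0.11 higher in siLonp1 cells (adjusted p = 0.0494, exact permutation test), with 0.13 (Ctrl), 0.23 (HS) and -0.03 (HS+REC). That call was lost in 15 of the 18 repeats that left out a library, among which the difference ran from 0.09 to 0.14. It was also lost with the replicate block. For HSPA4 to HSPA4L the average was -0.08 (adjusted p = 0.306, exact permutation test), from 0.22 in Ctrl to -0.33 in HS+REC.

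The members' shares of the summed HSP110 signal, per kb of exon union, changed accordingly. In Ctrl scramble HSPA4 made up 61.0% ± 0.287 of the sum, HSPH1 36.7% ± 0.266 and HSPA4L 2.22% ± 0.0281 (SD, n = 3). In HS scramble HSPH1 made up 69.3% ± 0.976, and in HS+REC scramble 75.6% ± 1.18 with HSPA4 at 22.4% ± 1.16 and HSPA4L at 2.09% ± 0.218. In HS+REC siLonp1 HSPH1 reached 78.8% ± 1.38. With canonical transcript lengths the HSPH1 share was 46.6% in Ctrl scramble, 77.3% in HS scramble and 82.3% in HS+REC scramble, so the leading member changed from HSPA4 to HSPH1 with heat under either length.

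**Figure D3:**
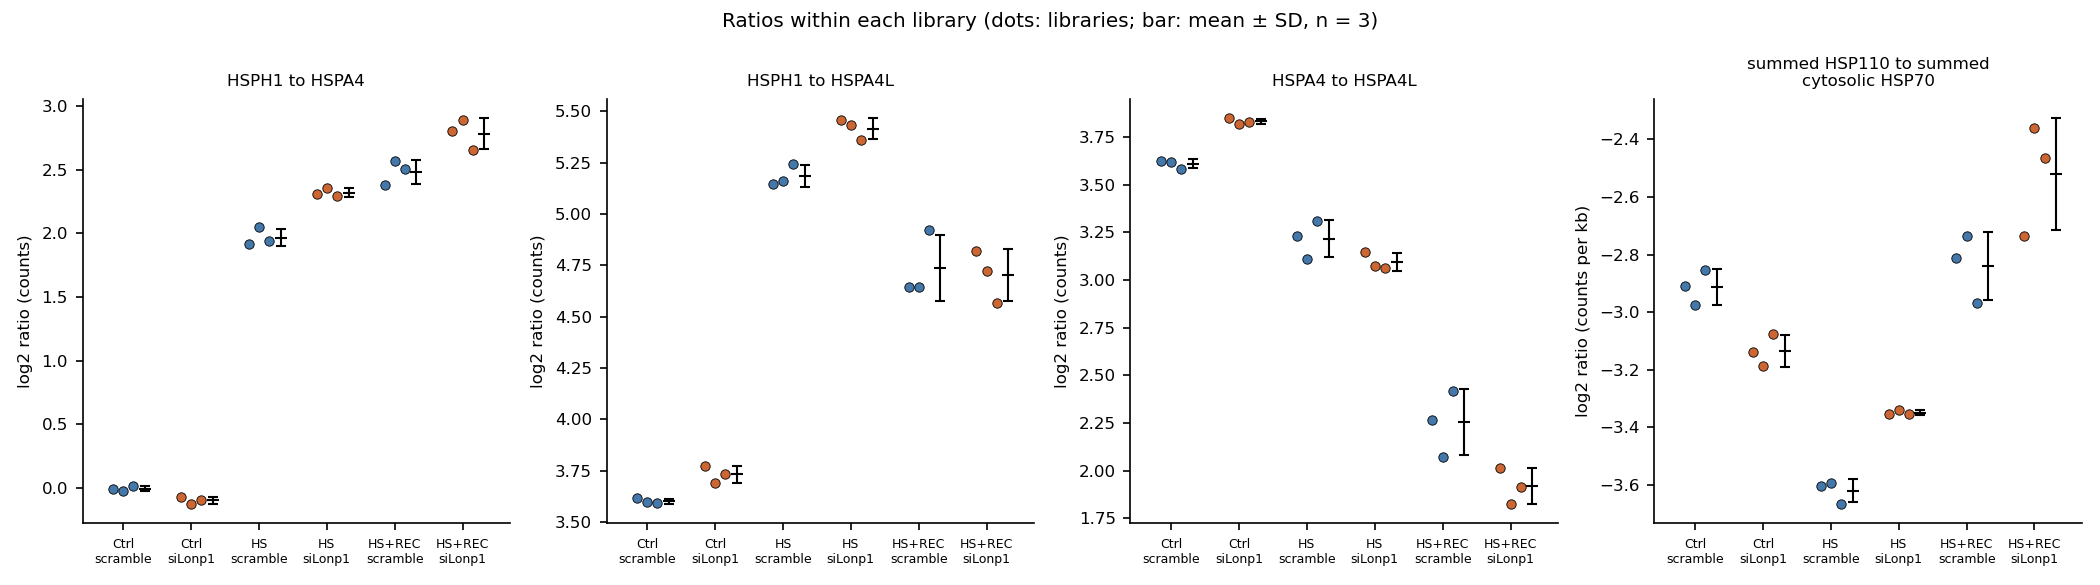
Log2 ratios within each library for the 3 pairs of HSP110 genes (counts) and for the summed HSP110 to the summed cytosolic HSP70 genes (counts per kb of exon union). Dots are libraries (blue scramble, orange siLonp1) and bars are mean ± SD, n = 3. HSPH1 gains on HSPA4 at each step, gains on HSPA4L in HS and loses part of it in HS+REC, and the HSP110 to HSP70 ratio is lowest in HS with these lengths, a step from Ctrl whose direction turns with transcript lengths.

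HSP110 works on HSP70, so the members were set beside the 7 cytosolic HSP70 genes. All 7 were called higher in HS scramble (6 with library size only, which lost HSPA2), with a median log2 change of 4.58 against 1.18 for the HSP110 genes and -0.01 for all genes, where 18.6% of all genes were called higher and 17.3% lower. That median is the change of HSPA1L, which was at 0.871 CPM in Ctrl scramble and 20.8 in HS scramble. HSPA1L passed the filter on low counts only through the heated groups. The inducible HSPA1A (7.11), HSPA1B (6.70) and HSPA6 (9.12) rose by more than HSPH1, HSPA8, the constitutive HSC70, rose by 1.16, which is close to HSPA4L, and HSPA14 (0.38) and HSPA2 (0.20) rose by less than HSPA4. HSPA1A and HSPA1B are near-identical copies, and HSPA6 is closely related, so the split of reads among them is uncertain. From HS to HS+REC in scramble, 5 of the 7 were called higher and 2 lower, where 14.2% of all genes were called higher and 12.7% lower. HSPA8 rose by a further 0.55 and HSPA1A by 0.79, while HSPA6 fell by 1.26 and HSPA14 by 0.17. The 3 HSP110 genes were all called higher there. In siLonp1 cells 3 of the 7 HSP70 genes were called higher and 2 lower, where 16.3% of all genes were called higher and 15.6% lower, and HSPA1B (0.16) was not called.

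The summed HSP110 genes stood at 0.133 of the summed cytosolic HSP70 genes in Ctrl scramble (CPM per kb of exon union), 0.0813 in HS scramble and 0.140 in HS+REC scramble, and at 0.114, 0.0982 and 0.174 in the siLonp1 arm. From HS to HS+REC the log2 ratio rose by 0.80 (adjusted p = 0.00727, exact permutation test, no overlap in either arm), and this held with each length and with HSPA1A, HSPA1B and HSPA6 left out of the sum. The step from Ctrl to HS has no firm direction. It was -0.46 with exon unions (adjusted p = 0.00727), but 0.27 with the longest transcript (adjusted p = 0.0431), 0.28 with the canonical transcript (adjusted p = 0.0369) and 0.88 without those 3 genes (adjusted p = 0.00667; all by exact permutation test). From Ctrl to HS+REC it was 0.34 (adjusted p = 0.0246, exact permutation test), with 0.07 in scramble, where groups overlapped, and 0.61 in siLonp1. With the replicate number as a block this rise lost its call (adjusted p = 0.115, exact sign-flip permutation). This rise was larger with the longest transcript (1.05) or the canonical transcript (1.06, both adjusted p = 0.00727) and without those 3 genes (1.53, adjusted p = 0.00667; all by exact permutation test), so its size depends on the gene model and on which HSP70 genes are summed.

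The other nucleotide exchange factors did not move as a block. Of the 6 other cytosolic ones, in HS scramble BAG3 (log2 change 5.37), which also links HSP70 to autophagy, and BAG4 (0.32) rose, BAG1 (-0.17) and BAG2 (-0.24) fell, and BAG5 and HSPBP1 were at -0.09 and 0.03 and were not called. The median over the 6 was -0.03. BAG3 climbed from 27.1 ± 0.658 CPM in Ctrl scramble to 1126 ± 42.5 in HS scramble and 1627 ± 128 in HS+REC scramble. Per kb of exon union BAG3 was at 411 in HS scramble and 595 in HS+REC scramble, beside 224 and 546 for HSPH1, whereas with canonical transcript lengths the values were 440 and 635 beside 359 and 874, so their order in HS+REC depended on the gene model. Of the 4 factors of other compartments, GRPEL2 of mitochondria rose by 0.67, and GRPEL1 of mitochondria (-0.19) and HYOU1 (-0.16) and SIL1 (-0.18) of the endoplasmic reticulum fell. HYOU1 is the HSP110 relative of that compartment, and it was at 227 ± 9.42 CPM in Ctrl scramble and 204 ± 3.55 in HS scramble, where the cytosolic members rose.

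The J-domain proteins, which start the HSP70 cycle that HSP110 completes, had 6 of 8 called higher in HS scramble, against 18.6% of all genes, with a median log2 change of 1.27. DNAJB1 (4.47), DNAJA4 (4.53) and DNAJB4 (4.54) rose by more than HSPH1, DNAJA1 (1.64) rose by an amount between HSPA4L and HSPH1, and DNAJB6 (0.91) and DNAJB2 (0.70) by about as much as HSPA4. DNAJA2 (-0.10) and DNAJB5 (0.22) were not called. From HS to HS+REC 5 of the 8 were called higher, against 14.2% of all genes, DNAJB6 by the most (1.12), whereas DNAJB1 (0.21) and DNAJB4 (0.24) were not called. HSF1 itself was at 88.6 ± 3.38 CPM in Ctrl scramble and 96.1 ± 4.28 in HS scramble (log2 change 0.12, not called), and HSF2 was at 37.5 CPM in both. In HS+REC scramble HSF2 was at 27.5 ± 2.62 CPM, and its log2 level fell by 0.45 against Ctrl (adjusted p = 9.97e-06).

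**Figure D4:**
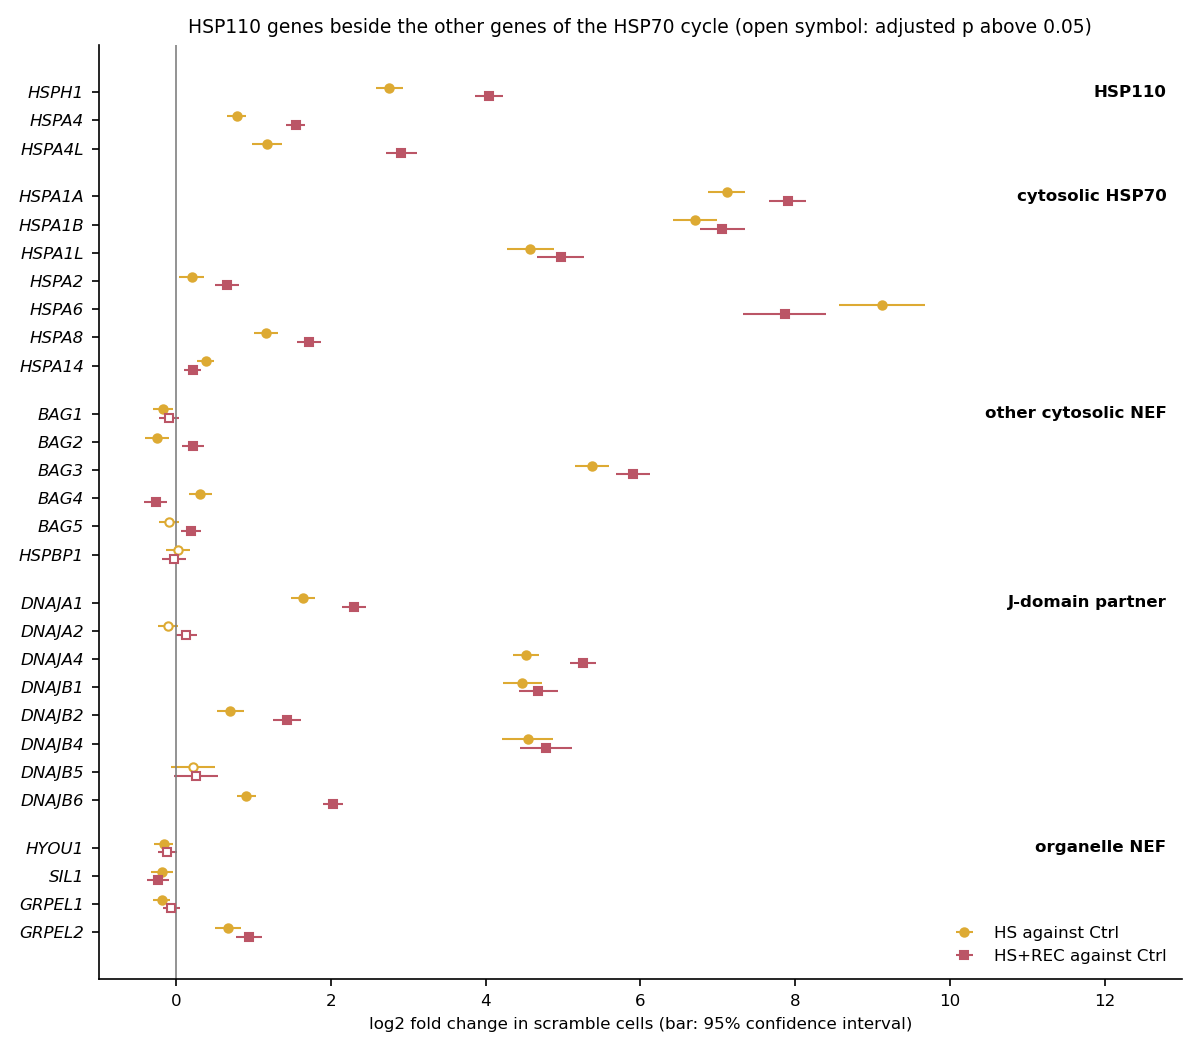
Log2 fold change with 95% confidence interval in scramble cells, HS (circles) and HS+REC (squares) against the same Ctrl libraries, for the HSP110 genes and 25 other genes of the HSP70 cycle grouped by role (NEF, nucleotide exchange factor). Open symbols did not pass an adjusted p of 0.05. The 3 HSP110 genes lie further right in HS+REC than in HS, HSPA6 lies further left, and most other exchange factors stay near 0.

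The same lists were counted for Lonp1 silencing under heat, with no test of a difference between lists. In HS, where 28.1% of all genes were called higher and 26.7% lower, siLonp1 cells had 2 of 7 HSP70 genes higher (HSPA8 by 0.42 and HSPA1L by 0.88), 6 of 8 J-domain genes higher and 1 lower, 3 of 6 other cytosolic exchange factors higher and 3 lower, and 2 of 4 organelle factors higher. The inducible HSPA1A and HSPA1B, at 0.14 each, were not called, beside 0.63 for HSPH1. For the interaction of siLonp1 and HS, 1 of 7 HSP70 genes (HSPA1L, 1.14) and 2 of 8 J-domain genes (DNAJA1, 0.46, and DNAJB6, 0.47) were called by edgeR, beside all 3 HSP110 genes and 0.475% of all genes. DESeq2 called 3 of the 8 J-domain genes, DNAJA4 (0.39) in addition. The HSPA1L interaction rests on low Ctrl levels, 0.871 CPM in scramble and 0.723 in siLonp1, and this gene passed the filter only through the heated groups. Of the other exchange factors 0 of 6 cytosolic and 0 of 4 organelle ones were called by edgeR or by DESeq2, while 3 and 0 had an unadjusted p under 0.05. With library size only, the siLonp1 differences in HS of BAG3, BAG4, DNAJA2, DNAJB1 and GRPEL2 lost their calls, as did that of DNAJB5 with DESeq2, and no called gene of these lists turned its direction in any of the 11 comparisons under that scaling, RLE or DESeq2. HSF1 was lower in siLonp1 cells, with log2 differences of -0.24 (Ctrl), -0.43 (HS) and -0.39 (HS+REC) and adjusted p of 0.00754, 2.44e-05 and 6.08e-05 by edgeR, where 22.9%, 26.7% and 27.3% of all genes were called lower.

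The genes whose level followed each member most closely over the 18 libraries were sought among 9251 genes. These had a mean of at least 10 CPM over all libraries, so a gene could enter through the heated groups. TRIM16, named below, was at 7.94 CPM in Ctrl scramble and 6.41 in Ctrl siLonp1. These correlations describe libraries that share the 6 conditions, so that any gene raised by heat in steps has a high value. For HSPH1 they were HSP90AA1, the inducible cytosolic HSP90 (Pearson r of log2 CPM 0.997), TRIM16, DNAJA1, CLU, which encodes the chaperone clusterin, and CLK3 (0.992). For HSPA4 they were DNAJB6 (0.998), HSP90AB1, the constitutive HSP90, MRPL18, GPBP1 and FKBP4, an HSP90 cochaperone (0.989). For HSPA4L they were DNAJB6 (0.992), HSPD1, the mitochondrial HSP60, TCP1, a subunit of the cytosolic chaperonin, ZNF761 and STIP1, which bridges HSP70 and HSP90 (0.988). Among the members, r was 0.984 for HSPH1 and HSPA4, 0.988 for HSPA4 and HSPA4L and 0.953 for HSPH1 and HSPA4L.

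The counts are per gene, so the isoforms of HSPH1 were not separated. Some exons of HSPA4L overlap a pseudogene (RPL21P53) and a long noncoding RNA on the opposite strand, and since the strand setting of the counting is not given in the sources used here, reads of these could have been counted for HSPA4L or left out with it.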

How the data were processed

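RNAseq libraries of SW620 cells were analysed. Per the labels and the study's methods, the authors prepared stranded mRNA libraries from cells of independent biological replicates, aligned the reads to hg38 with STAR 2.7.3a and counted them per gene with featureCounts in R 3.6.3, and the deposited values are raw counts with no normalization. Strand setting, handling of reads shared by several genes and annotation release are not given in the sources used here. Each of the 18 columns was matched to a sample by its title, and 0 columns belonged to no sample.

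Genes that exceeded 1 CPM in 3 or more libraries were tested with edgeR 4.0.16 (R 4.3.3; TMM; quasi-likelihood test; 1 model with 6 group means; prior count 0.125), with Benjamini-Hochberg adjustment over all 12832 genes, and called at an adjusted p of at most 0.05, with or without a fold change above 2. CPM are counts per 1000000 counts of the tested genes after TMM scaling. SE is the absolute log2 fold change divided by the square root of F. Gene lengths, starts and sequences came from GENCODE 44 on hg38. Ratios were tested exactly in Python 3.11.15. Scripts were tested on simulated data. The genes named are the 3 members, LONP1, HSF1, HSF2, fixed lists of HSP70, J-domain and exchange factor genes, cell type markers, and per member the 5 genes of highest r (log2 CPM with a prior count of 2). Members and lists were chosen with earlier results of these data known. Replicates differed by more than counting error (chi-square per degree of freedom 3.62 to 27.5), so none was the same library sequenced again. Separate preparations of the same RNA would not be seen by this. Alternatives were RLE, library size only, no filter or a stricter one, DESeq2 1.42.0, the replicate number as a block, only the groups compared, an adjusted p of 0.01, other gene lengths and each library left out.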

Additional observations from a re-analysis of the deposited data

Results flagged for a closer look

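Groups of 3 libraries were not tested for outlying samples. The response to heat differed between the siRNA arms, by the test of the difference itself, in 5 cases: the interaction of siLonp1 and HS for HSPH1 (0.75 on the log2 scale), HSPA4L (0.65) and HSPA4 (0.31), and that of siLonp1 and HS+REC for HSPH1 (0.60) and HSPA4L (0.75). In all 5 the rise from Ctrl was larger in siLonp1 cells. The HSPA4 case lay at the threshold (adjusted p = 0.0494, edgeR quasi-likelihood test). Its call was lost in 9 of the 18 fits that left out a library, with library size only and with the replicate block. The part of the residual LONP1 level, which was 20.4 CPM in Ctrl siLonp1, 11.7 in HS siLonp1 and 27.2 in HS+REC siLonp1, was not tested.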

How the results depend on the processing

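Of 858 alternative values for the 33 log2 fold changes, 833 kept their direction and call, and none reversed. HSPH1 in Ctrl became lower in siLonp1 by the test with library size only (-0.20) and with only the groups compared (-0.14). HSPA4 in HS+REC lost its siLonp1 call with library size only (0.091), with only the groups compared (0.16) and at an adjusted p of 0.01 (0.16), and its values with a library left out ran from 0.11 to 0.20. The HSPA4 interaction with HS lost its call with library size only (0.29), at 0.01 (0.31) and with the replicate block (0.31, adjusted p = 0.0741), and it ran from 0.28 to 0.34 with a library left out. HSPA4L in Ctrl lost its call at 0.01 (-0.26), and ran from -0.29 to -0.23 with a library left out. Of 27 same-numbered pairs 6 deviated together with r above 0.1 (median -0.04, range -0.38 to 0.46). Between HS and HS+REC r was 0.27, -0.16 and 0.13 in scramble and 0.26, 0.09 and 0.12 in siLonp1. Pairs of different number were not compared, so whether the numbers pair libraries is not settled.

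Of 352 values for the 16 ratios, 305 were counted as unchanged and 5 as reversed. Values within single strata were not counted by call. They counted as unchanged within 1 replicate SD of the average, and as reversed only where the average had passed its test. With the replicate block, the siLonp1 difference of HSPH1 to HSPA4 (0.19, adjusted p = 0.0625), that of HSPH1 to HSPA4L (0.11, adjusted p = 0.147) and the Ctrl to HS+REC change of HSP110 to HSP70 (0.34, adjusted p = 0.115) lost their calls, all by exact sign-flip permutation. HSPH1 to HSPA4L also lost it in 15 repeats with a library left out (0.090 to 0.14). The HSP110 to HSP70 change in HS reversed to 0.27 (longest transcript), 0.28 (canonical transcript, added after seeing the data) and 0.88 (without HSPA1A, HSPA1B and HSPA6). Within single strata, where the exact permutation test cannot give a p below 0.1, values moved by more than 1 replicate SD as follows. For scramble and siLonp1 in turn, HSPH1 to HSPA4 changed by 1.98 and 2.42 (HS) and by 2.49 and 2.88 (HS+REC against Ctrl), HSPH1 to HSPA4L by -0.45 and -0.71 (HS+REC against HS), HSPA4 to HSPA4L by -0.39 and -0.74 (HS), -1.36 and -1.91 (HS+REC against Ctrl) and -0.96 and -1.18 (HS+REC against HS), and HSP110 to HSP70 by -0.71 and -0.21 (HS) and 0.073 and 0.61 (HS+REC against Ctrl). The siLonp1 difference was -0.091 (reversed), 0.35 and 0.30 in Ctrl, HS and HS+REC for HSPH1 to HSPA4, 0.23 in HS and -0.033 (reversed) in HS+REC for HSPH1 to HSPA4L, 0.22 in Ctrl and -0.33 in HS+REC for HSPA4 to HSPA4L, and -0.22, 0.27 and 0.32 for HSP110 to HSP70. The Ctrl values 0.22 and -0.22 also have the sign opposite to their averages (-0.08 and 0.12), which had not passed. Except for the lengths, the left-out genes and the strata, whose construction shows it, the cause was not tested.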
